A study of Mus musculus with 14 samples.

Results

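The genes of the bone morphogenetic protein (BMP), growth differentiation factor (GDF), Nodal, TGF-beta and activin signalling family were examined for the chromatin binding of RNF2 and BAP1 in mouse embryonic stem (ES) cells. The set of 38 genes was taken by name from the 21779 protein-coding genes of the RefSeq GRCm38.p6 annotation. It comprised 16 BMP and GDF ligands, 7 genes for Nodal, TGF-beta and the activin and inhibin subunits, 8 antagonists, 6 receptors and the protease gene Bmp1. A gene was counted as occupied when a deposited peak overlapped its span extended by 1 kb on each side.

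RNF2 (RING1B) is the catalytic part of Polycomb repressive complex 1 and places ubiquitin on histone H2A, and BAP1 is a deubiquitinase that takes it off. Ligands of the TGF-beta superfamily are secreted dimers that bring type I and type II serine/threonine kinase receptors together, and the receptors phosphorylate Smad proteins that act on target genes in the nucleus. Secreted antagonists such as Noggin, Chordin and the Lefty proteins hold ligands or receptors back, and in the early embryo the balance of BMP and Nodal signals bears on when pluripotent cells leave that state and which germ layer they form.

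Chromatin immunoprecipitation and sequencing (ChIP-seq) with an anti-RNF2 antibody was available from 2 libraries of BAP1 knockout (KO) cells, 2 libraries of wild-type cells and 1 library of RNF2 KO cells. ChIP with an anti-BAP1 antibody was available from 1 library of cells with the BAP1 form C91A and 1 library of BAP1 KO cells. The C91A cells, given in the protocol as Bap1C91A/-, carry a BAP1 whose catalytic cysteine is replaced, and they were crosslinked with disuccinimidyl glutarate in addition. All cells were C57BL/6 ES cells, and all had been kept for 4 days in 100 nM 4-hydroxytamoxifen (4-OHT) together with the caspase inhibitor emricasan at 10 µM. Wild-type cells therefore had the same treatment as the KO cells. The labels do not say that the first and second library of a genotype came from separate cultures, and each library had its own input.

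The first and second RNF2 libraries were not alike. The first held 54.1 M tags in BAP1 KO and 58.4 M in wild type and gave 7946 and 4038 peaks. The second held 139 M tags in BAP1 KO and 149 M in wild type and gave 39872 and 28770 peaks. Peaks were therefore compared within the first pair and within the second pair. An exact permutation test of 2 against 2 libraries cannot give a two-sided p below 0.333, so that test cannot pass 0.05 for a single gene, and no difference between genotypes was tested. The RNF2 KO library gave no peak in 119 M tags. A peak list does not measure expression, so the cell type could not be checked by RNA. Of 12 ES cell marker genes 1, Esrrb, had RNF2 in both wild-type libraries, and Nanog, Dppa4, Dppa5a and Tdgf1 had none in any library. Of 12 fibroblast marker genes 4, Thy1, Vim, Fbn1 and Twist2, had RNF2 in both wild-type libraries, where 13.4% of all genes did. Col3a1, Postn, S100a4 and Lum of that list had none in any library. That state thus held for 4 genes of either list and for 35.1% of all genes. Neither marker list had a BAP1 peak, which 4.52% of all genes had.

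Of the genes that carried both BAP1 and RNF2, Bmp6, Gdf7 and Grem1 have a start entry in the RefSeq promoter table, and of those that carried neither, Bmp5, Bmp10, Bmp15 and Cer1 have one. The 250 bases before the annotated start are shown for the 3 bound genes and, as a contrast, for Bmp10 and Bmp15, the first 2 of the 4 unbound genes in the character order of their symbols, so that the CG content can be compared by eye. The intervals on GRCm38.p6 are chr13:38345466-38345715 (plus strand) for Bmp6, chr12:8301955-8302204 (minus strand) for Gdf7, chr2:113758649-113758898 (minus strand) for Grem1, chr6:87428744-87428993 (plus strand) for Bmp10 and chrX:6320725-6320974 (minus strand) for Bmp15. Capitals mark every CG dinucleotide, which reads the same on both strands.

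Bmp6: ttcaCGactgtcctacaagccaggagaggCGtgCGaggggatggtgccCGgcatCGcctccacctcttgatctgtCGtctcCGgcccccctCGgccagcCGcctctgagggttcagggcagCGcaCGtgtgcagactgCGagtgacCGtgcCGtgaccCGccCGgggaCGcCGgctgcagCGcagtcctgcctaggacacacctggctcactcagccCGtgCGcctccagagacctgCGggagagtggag
Gdf7: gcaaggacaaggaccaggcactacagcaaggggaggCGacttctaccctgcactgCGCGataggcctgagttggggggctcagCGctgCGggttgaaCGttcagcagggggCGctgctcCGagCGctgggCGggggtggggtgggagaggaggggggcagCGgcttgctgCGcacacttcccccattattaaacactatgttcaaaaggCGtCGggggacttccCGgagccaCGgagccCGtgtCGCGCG
Grem1: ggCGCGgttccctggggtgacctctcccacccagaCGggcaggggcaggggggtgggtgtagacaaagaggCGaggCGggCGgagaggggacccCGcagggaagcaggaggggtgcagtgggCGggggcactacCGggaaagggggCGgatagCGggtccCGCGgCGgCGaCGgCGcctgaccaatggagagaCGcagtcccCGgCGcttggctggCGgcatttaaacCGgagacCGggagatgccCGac
Bmp10: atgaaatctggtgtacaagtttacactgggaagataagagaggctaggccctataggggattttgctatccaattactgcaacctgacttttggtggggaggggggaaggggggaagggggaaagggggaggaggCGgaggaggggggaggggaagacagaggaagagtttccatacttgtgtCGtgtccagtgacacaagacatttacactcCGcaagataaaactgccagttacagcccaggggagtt
Bmp15: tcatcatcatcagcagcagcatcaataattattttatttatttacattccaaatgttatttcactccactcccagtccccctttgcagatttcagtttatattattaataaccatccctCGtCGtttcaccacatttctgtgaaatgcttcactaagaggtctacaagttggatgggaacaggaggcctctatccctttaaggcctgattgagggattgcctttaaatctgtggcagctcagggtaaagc

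The printed stretches held 22 CG in Bmp6, 20 in Gdf7 and 24 in Grem1, against 3 in Bmp10 and 2 in Bmp15. In the full 300 bases of the table, the unbound starts not printed held 4 in Bmp5 and 6 in Cer1, against 3 in Bmp10 and 2 in Bmp15. RNF2 peaks covered all 250 bases in each of the 4 RNF2 libraries at Bmp6, Gdf7 and Grem1, and none of them at Bmp10 and Bmp15. BAP1 peaks covered none of the 250 bases at any of the 5 genes. They lay downstream of the start at the 3 bound genes, as described with the BAP1 peaks.

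RNF2 lay at a larger share of the set than of all genes in each of the 4 RNF2 libraries. In BAP1 KO, 26 of the 38 genes (68.4%) had RNF2 in both libraries, where 26.9% of all protein-coding genes did. In wild type, 19 (50.0%) had RNF2 in both libraries, where 13.4% of all genes did. The same 19 genes had RNF2 in all 4 libraries, a state that 13.0% of all genes shared. Among the roles, RNF2 was present in both BAP1 KO libraries at 11 of 16 BMP and GDF ligands, 6 of 7 Nodal, TGF-beta and activin genes, 7 of 8 antagonists and 1 of 6 receptors. In both wild-type libraries it was present at 9 of 16, 3 of 7, 5 of 8 and 1 of 6 of these genes, and at Bmp1. The receptors' 1 of 6 (16.7%) in wild type lay near the share of all genes. The differences between roles were not tested. The receptor genes had a median length of 103 kb, against 6.36 kb for the antagonists and 17.2 kb for all genes.

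**Figure D1:**
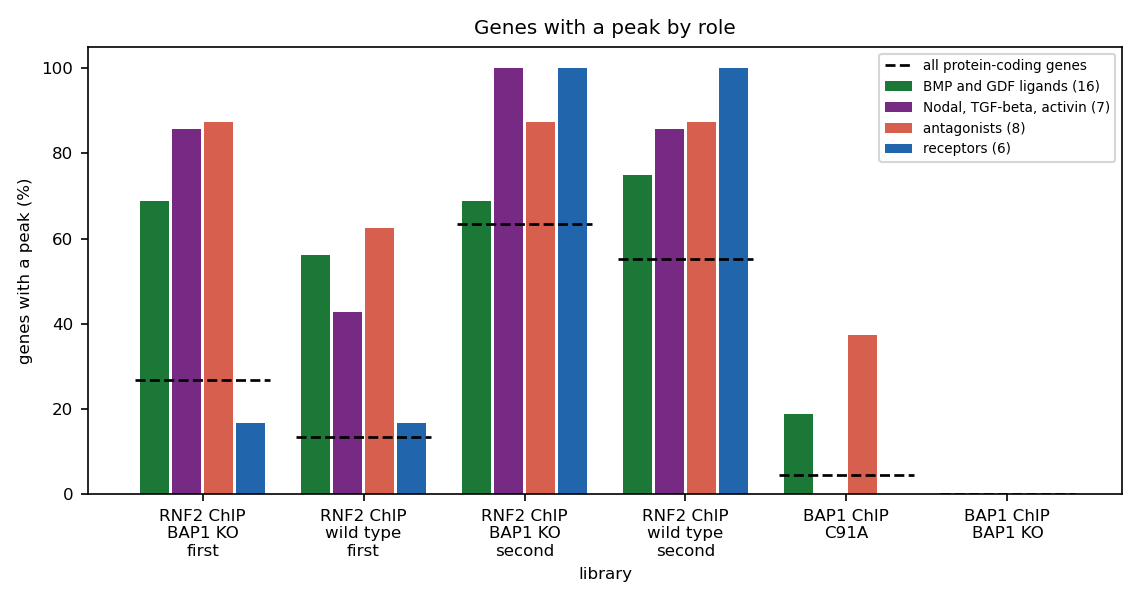
Percentage of genes with a peak in the gene and 1 kb on each side, by library (x axis) and role (bars), with the percentage over all protein-coding genes as dashed lines. In the first pair, antagonists and ligands stand above the dashed line and receptors do not in BAP1 KO (16.7% of receptors, against 26.9% of all genes); in the second pair all 6 receptors had a peak.

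The plot of shares by role shows how much the receptors depend on which pair is read. In the second pair, 32 of 38 genes (84.2%) had RNF2 in BAP1 KO and 32 in wild type, against 63.5% and 55.3% of all genes. All 6 receptors were among them in either genotype.

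The BMP and GDF ligands with RNF2 in all 4 libraries were Bmp2, Bmp3, Bmp4, Bmp6, Bmp7, Gdf6, Gdf7, Gdf10 and Gdf15. Bmp4, a ligand of early mesoderm and germ cell induction, reached a fold enrichment of 27.9 (first library) and 23.9 (second library) in BAP1 KO, against 7.39 and 21.2 in wild type. Fold enrichment is the authors' value for a peak over its local background. It ranks peaks within 1 list, so values of different libraries are set side by side here and not compared. The Bmp4 peak ranked 81 of 7946 and 1 of 39872 in the BAP1 KO lists, and 730 of 4038 and 289 of 28770 in the wild-type lists. In the second BAP1 KO list its pileup was at the upper limit of 200 described below, as at 800 peaks of that list. Tied peaks share the lowest rank, so rank 1 there does not mark Bmp4 as the strongest site. Bmp2, the ligand closest to Bmp4, had 19.7 and 20.1 in BAP1 KO, against 9.65 and 20.8 in wild type. Bmp6, of the Bmp5, Bmp6 and Bmp7 subgroup, had 20.1 and 22.8 in BAP1 KO, against 12.1 and 21.6 in wild type. Bmp7, needed for kidney and eye development, had 16.3 and 23.8 in BAP1 KO, against 4.73 and 16.1 in wild type. Of these 4 ligands, Bmp4 was the highest in the first BAP1 KO list and Bmp6 in the first wild-type list.

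Gdf6 and Gdf7 belong to the Gdf5, Gdf6 and Gdf7 subgroup, which acts in joints and, for Gdf7, in the roof plate of the neural tube. Gdf6 had a highest fold enrichment of 21.3 and 17.1 in BAP1 KO, against 10.5 and 19.5 in wild type. Gdf7 had 13.3 and 20.1 in BAP1 KO, against 10.7 and 16.7 in wild type. The peaks at Gdf7 also reached the neighbouring gene Ldah. Bmp3, an atypical ligand that opposes other BMPs in bone, had 10.2 and 22.3 in BAP1 KO, against 5.52 and 21.7 in wild type. Gdf10, its closest relative, had 6.05 and 21.1 in BAP1 KO, against 2.71 and 17.7 in wild type. Gdf15, a stress-induced ligand that signals through another receptor type, had the lowest value of the 9 in 3 of the 4 lists, with Gdf10 below it in the first wild-type list. It had 3.31 and 8.92 in BAP1 KO, against 3.81 and 5.49 in wild type.

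Among the Nodal, TGF-beta and activin genes, Tgfb2, Inhba and Inhbb had RNF2 in all 4 libraries. Inhbb, for the activin beta B subunit, had a highest fold enrichment of 14.3 and 23.0 in BAP1 KO, against 5.34 and 15.2 in wild type. Tgfb2, for a TGF-beta ligand of heart and neural crest development, had 9.29 and 22.5 in BAP1 KO, against 6.49 and 12.8 in wild type. Inhba, for the activin beta A subunit, had 6.09 and 13.9 in BAP1 KO, against 4.07 and 14.2 in wild type. Bmp1 is a metalloprotease that cleaves procollagen and Chordin and is no BMP ligand. It had 13.3 and 22.1 in BAP1 KO, against 5.82 and 18.9 in wild type, under peaks that also reached Sftpc.

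The antagonists with RNF2 in all 4 libraries were Nog, Chrd, Grem1, Fst and Lefty2. Grem1, for Gremlin, which binds BMPs, had a highest fold enrichment of 23.8 and 20.1 in BAP1 KO, against 12.7 and 19.0 in wild type, the highest first-library wild-type value of the set. Fst, for Follistatin, which binds activins, had 23.0 and 20.1 in BAP1 KO, against 12.6 and 16.7 in wild type. Nog, for Noggin, which binds BMPs, had 18.3 and 20.0 in BAP1 KO, against 8.58 and 20.4 in wild type. These 3 antagonists ranked with Bmp6, Gdf7, Gdf6 and Bmp2 at the top of the set in the first wild-type library. Chrd, for Chordin, had 19.8 and 20.0 in BAP1 KO, against 2.50 and 15.0 in wild type, under peaks that also reached Thpo. Lefty2, which blocks Nodal signalling, had 7.87 and 20.1 in BAP1 KO, against 3.14 and 5.47 in wild type. Chrd had the lowest first-library wild-type value of the 19 genes.

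Bmpr1b, for a type I BMP receptor, was the single receptor with RNF2 in all 4 libraries. It had a highest fold enrichment of 10.6 and 20.7 in BAP1 KO, against 3.81 and 18.7 in wild type. Its strongest peak in every library lay at the outer 5′ edge of the gene span, over the end coordinate 142169585 on chromosome 3. That peak was at none of the 3 RefSeq start entries of Bmpr1b. A weaker peak of the second BAP1 KO library, at 2.85, had its summit 203 bp downstream of the nearest entry.

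**Figure D2:**
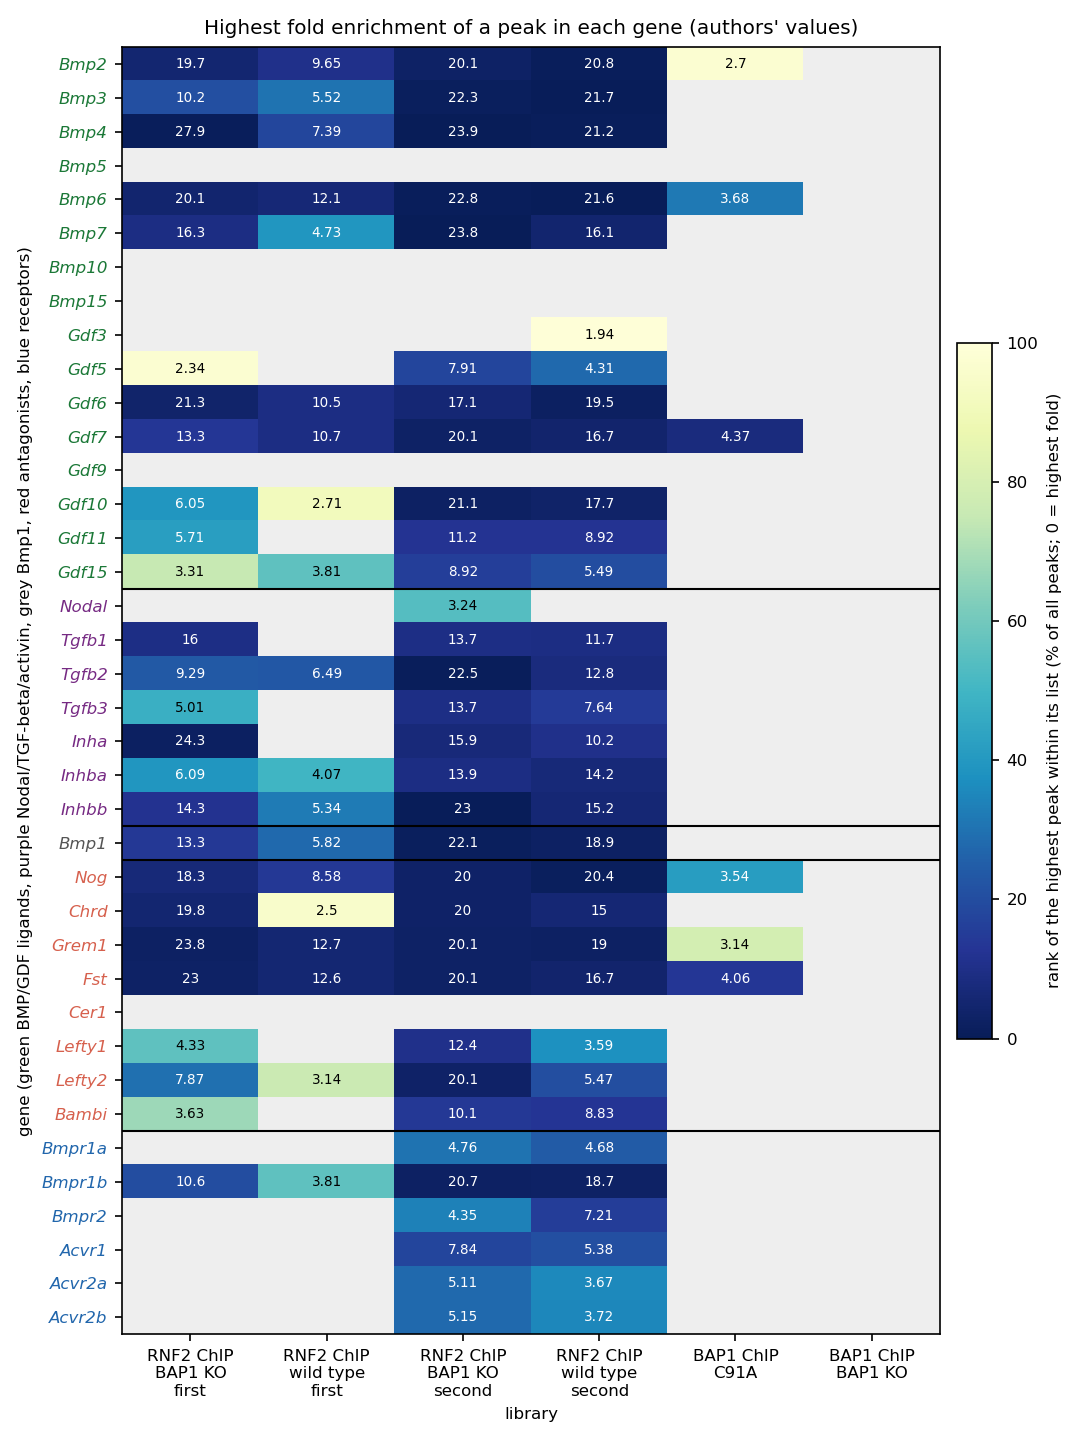
Highest fold enrichment (number in each cell, the authors' value) of any peak at each of the 38 genes (rows) in 6 ChIP libraries (columns); colour gives the rank of that peak within its own list as a percentage of all its peaks, dark for high ranks, and grey marks genes with no peak. Ligands and antagonists such as Bmp4, Bmp6, Grem1 and Fst are dark in all 4 RNF2 columns, while 5 of 6 receptors are grey in both first libraries.

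Over the genes with a peak, the set's median highest fold enrichment was 13.3 in the first BAP1 KO library, against 5.62 over all genes, and 18.5 in the second, against 6.42. In wild type it was 5.82 in the first library, against 4.39 over all genes, and 13.5 in the second, against 4.47. Values in the second libraries had an upper limit. They were called with 1 tag kept per position and strand and an extension of 100 bp, so the pileup at a summit cannot exceed 200. The strongest peak of 11 genes of the set was at this limit in BAP1 KO and that of 6 in wild type. Differences between strong genes within the second libraries, such as Bmp4 and Nog, therefore cannot be read from fold enrichment.

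Gain of RNF2 in BAP1 KO was not seen across all 4 libraries. None of the 38 genes had RNF2 in both BAP1 KO libraries and in neither wild-type library, where 0.133% of all genes did. None had it in both wild-type libraries and in neither BAP1 KO library, where 0% of all genes did. In the first pair alone, 7 genes (18.4%) had RNF2 in BAP1 KO and not in wild type, where 13.9% of all genes did, and none had the opposite state, where 0.377% did. The set's share lay near the share of all genes.

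The 7 genes of the first pair were Gdf5, Gdf11, Tgfb1, Tgfb3, Inha, Lefty1 and Bambi, and all had RNF2 in the second wild-type library as well. Inha, for the inhibin alpha subunit, had a highest fold enrichment of 24.3 and 15.9 in BAP1 KO, against no peak and 10.2 in wild type, under peaks that also reached Obsl1. The summit of its strongest peak in the first BAP1 KO library was at 75506011 on chromosome 1, outside the counted window, and the peak covered 10 of the 300 bases at the start. When the summit had to lie in the window, Inha had RNF2 in 2 of the 4 libraries and was no longer called in both BAP1 KO libraries. Tgfb1, the best known TGF-beta ligand, had 16.0 and 13.7 in BAP1 KO, against no peak and 11.7 in wild type, under peaks that also reached B9d2. In the first BAP1 KO library, Inha and Tgfb1 had the highest values of the 7. The Inha values came from peaks with summits outside the window in every library where it had a peak. Inha peaks with a summit inside the window reached 5.64 in the first BAP1 KO library and 3.24 in the second wild-type library. Gdf11, which patterns the body axis, had 5.71 and 11.2 in BAP1 KO, against no peak and 8.92 in wild type. Tgfb3, a ligand of palate development, had 5.01 and 13.7 in BAP1 KO, against no peak and 7.64 in wild type. Lefty1, the Nodal inhibitor next to Lefty2 on chromosome 1, had 4.33 and 12.4 in BAP1 KO, against no peak and 3.59 in wild type. The remaining pair had weaker first-library peaks. Bambi, a receptor-like protein without a kinase domain, had 3.63 and 10.1 in BAP1 KO, against no peak and 8.83 in wild type. Gdf5, a joint ligand, had 2.34 and 7.91 in BAP1 KO, against no peak and 4.31 in wild type.

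In the second pair, Nodal was the single gene with RNF2 in BAP1 KO and not in wild type, where 9.64% of all genes were in that state. Nodal, the ligand of mesendoderm induction, had 1 peak of 177 bp with a fold enrichment of 3.24, whose summit lay 550 bp downstream of the start. Gdf3, a ligand active in pluripotent cells, was the single gene with the opposite state, which 1.40% of all genes shared. Its peak in the second wild-type library was 123 bp long with a fold enrichment of 1.94.

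Of the 6 receptor genes, 5 had RNF2 in the second libraries alone, a state of 26.7% of all genes. They were Bmpr1a and Acvr1, for type I receptors, and Bmpr2, Acvr2a and Acvr2b, for type II receptors. Their highest fold enrichment in BAP1 KO and in wild type was 4.76 and 4.68 for Bmpr1a, 7.84 and 5.38 for Acvr1, and 4.35 and 7.21 for Bmpr2. It was 5.11 in BAP1 KO and 3.67 in wild type for Acvr2a, and 5.15 and 3.72 for Acvr2b. These peaks lay within the lower range of the set, below every second-library value of Bmpr1b. Peaks at Acvr1 also reached Upp2 in either genotype.

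Bmp5, Bmp10, Bmp15, Gdf9 and Cer1 had RNF2 in none of the 4 libraries, the state of 35.1% of all genes. Bmp15 and Gdf9 are oocyte ligands, Bmp10 is a heart ligand, Bmp5 acts in skeletal development and Cer1 is a secreted inhibitor of Nodal and BMPs. The peak lists hold called peaks alone, so a weaker signal at these genes cannot be told from none.

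The length of DNA covered by RNF2 was compared at the 19 genes with RNF2 in all 4 libraries. In the first pair, coverage was longer in BAP1 KO at 19 of 19 genes, where this held for 91.8% of the genes with RNF2 in all 4 libraries. Peaks covered a median of 3223 bp in BAP1 KO and 2020 bp in wild type, and the median ratio was 1.56, against 1.65 over those genes. In the second pair, coverage was longer in BAP1 KO at 8 of the 19 genes, shorter at 9 and equal at Gdf7 and Nog, where 69.6% of all such genes were longer. The median ratio there was 1.00, against 1.08. Coverage was longer in BAP1 KO in both pairs at 8 of 19 genes (42.1%), against 66.5% of all such genes, namely Bmp4, Bmp7, Gdf15, Inhbb, Chrd, Grem1, Lefty2 and Bmpr1b. With coverage counted only within 1 kb of gene starts, this held at 2 of 15 genes, Bmp4 and Bmp7. For genes without a start entry, Bmp7 among them, 1 kb around both ends of the gene span was counted. At Chrd, Inhbb and Grem1, second-library peaks covered that whole window in both genotypes, so coverage could not differ there. Gdf15, Lefty2 and Bmpr1b no longer had RNF2 in all 4 libraries.

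The largest first-pair ratio was at Lefty2, with 1237 and 2812 bp in the BAP1 KO libraries, against 323 and 1579 bp in wild type. Chrd had 2801 and 4291 bp in BAP1 KO, against 889 and 3775 bp in wild type. Bmp7 had 4527 and 9496 bp in BAP1 KO, against 1771 and 7512 bp in wild type. At these 3 genes the BAP1 KO value exceeded that of wild type in each pair, but the first BAP1 KO library lay below the second wild-type library, so the genotypes overlapped across pairs. Gdf15 had 837 and 3134 bp in BAP1 KO, against 433 and 1084 bp in wild type. Inhbb had 3888 and 5531 bp in BAP1 KO, against 2020 and 3788 bp in wild type, and its BAP1 KO values lay above both wild-type values. Bmp4 had 6420 and 7465 bp in BAP1 KO, against 3916 and 6765 bp in wild type. Bmpr1b had 1933 and 3485 bp in BAP1 KO, against 1238 and 2381 bp in wild type. Grem1 differed least in the second pair among the 8, with 3223 and 4235 bp in BAP1 KO, against 2790 and 3845 bp in wild type.

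The 9 genes with the opposite sign in the second pair were Bmp1, Bmp2, Bmp3, Bmp6, Fst, Gdf6, Gdf10, Inhba and Tgfb2. Gdf6, with the longest coverage of the set, had 7063 and 10197 bp in BAP1 KO, against 6070 and 10841 bp in wild type. Inhba had 2355 and 4218 bp in BAP1 KO, against 760 and 4535 bp in wild type. Their first-pair and second-pair differences thus had opposite signs. Second-pair ratios of the 9 lay between 0.866 at Bmp3 and 0.970 at Fst. Over the 31 genes with RNF2 in both second libraries, coverage was longer in BAP1 KO at 20 (64.5%), against 84.9% of all such genes. Nog and Gdf7 could not differ in the second pair, since peaks covered the whole counted window of 3922 and 6037 bp in either genotype. The difference between the pairs in depth and calling cannot be told apart from other differences between the libraries.

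**Figure D3:**
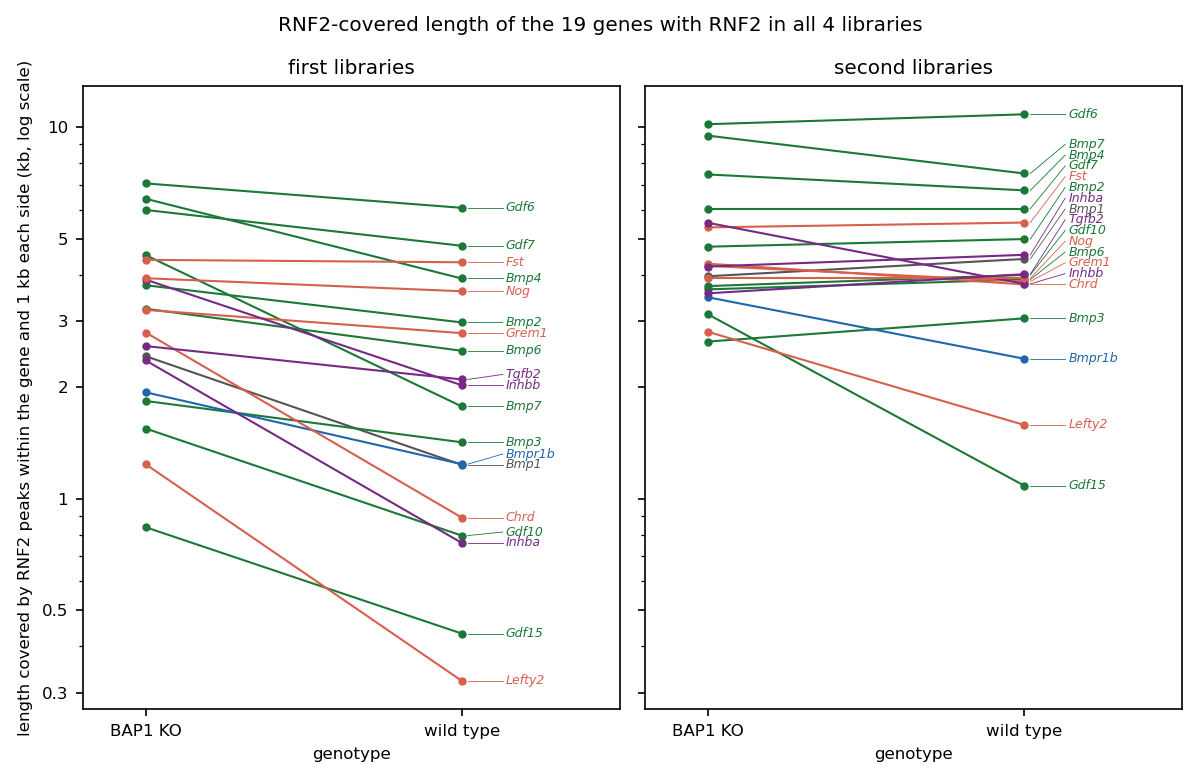
Length covered by RNF2 peaks (y axis, kb, log scale) at each of the 19 genes with RNF2 in all 4 libraries, in BAP1 KO (left points) and wild type (right points), for the first and the second pair; lines join the values of a gene and colours give its role. All 19 lines fall toward wild type in the first panel, and 8 of 19 do in the second.

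BAP1 itself was found at 6 of the 38 genes in C91A cells (15.8%), where 4.52% of all genes had a BAP1 peak. They were the ligands Bmp2, Bmp6 and Gdf7 and the antagonists Nog, Grem1 and Fst. None of the 7 Nodal, TGF-beta and activin genes and none of the 6 receptors had one. The BAP1 ChIP in BAP1 KO cells had a peak at none of the 38 genes, where 0.124% of all genes had one. That control held 32.5 M tags, against 415 M in the C91A library, and its labels do not give the additional crosslinker of the C91A cells. There was 1 library of each, so depth, crosslinking and genotype cannot be told apart. All 6 genes also had RNF2 in both wild-type libraries, a combination found at 2.23% of all genes.

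The BAP1 peaks were short and of low enrichment. Gdf7, on chromosome 12 (GRCm38), had the highest value, with 4 peaks of 545 bp in sum, a highest fold enrichment of 4.37 and a highest −log10 q of 6.86. Its summits lay 2943 to 3610 bp downstream of the start. Fst, on chromosome 13, had 5 peaks of 858 bp in sum between 114457253 and 114459639, with a highest fold enrichment of 4.06 and a −log10 q of 5.11. The last 2 of these lay outside the gene, in its flank, and apart from Gdf7 and Fst no gene of the set had more than 2 BAP1 peaks. Bmp6 had 2 peaks with summits 216 and 391 bp downstream of the start and a highest fold enrichment of 3.68. Nog, on chromosome 11, had 1 peak of 88 bp at 3.54, from 89302192 to 89302279 inside the gene span of 89300638 to 89302559. Grem1 had 1 peak of 64 bp at 3.14, whose summit lay 618 bp downstream of its start. Bmp2, on chromosome 2, had 1 peak of 58 bp at 2.70, from 133552228 to 133552285 at the lower edge of the gene span of 133552159 to 133562896, which was rank 2336 of the 2395 BAP1 peaks. The median of the 6 genes' highest fold enrichment was 3.61, against 3.62 over all genes with BAP1. BAP1 peaks at Gdf7 also reached the counted window of Ldah, so they cannot be assigned to Gdf7 alone. With only 1 kb around gene starts counted, Bmp2, Bmp6, Nog, Grem1 and Fst kept a BAP1 peak and Gdf7 did not. Bmp2, Nog and Fst have no start entry, so 1 kb around both ends of their gene span was counted instead. The 2 groups of genes were thus not held to the same rule.

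All 14 BAP1 summits at these genes lay inside RNF2 peaks of both wild-type libraries. Of all 2395 BAP1 peaks, 77.1% did so in the first wild-type library and 87.4% in the second. At Gdf7 the summit of the strongest BAP1 peak was 3 bp from an RNF2 summit of wild type in the first library and 84 bp from one in the second. At Nog these distances were 115 and 19 bp. They were larger elsewhere, at 295 and 137 bp for Bmp6, 471 and 66 bp for Grem1 and 458 and 366 bp for Bmp2. For the strongest Fst peak they were 113 and 1254 bp, and another Fst summit lay 2031 bp away in the first library. RNF2 and BAP1 were mapped in different cells, C91A and wild type, and C91A cells had the additional crosslinker.

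**Figure D4:**
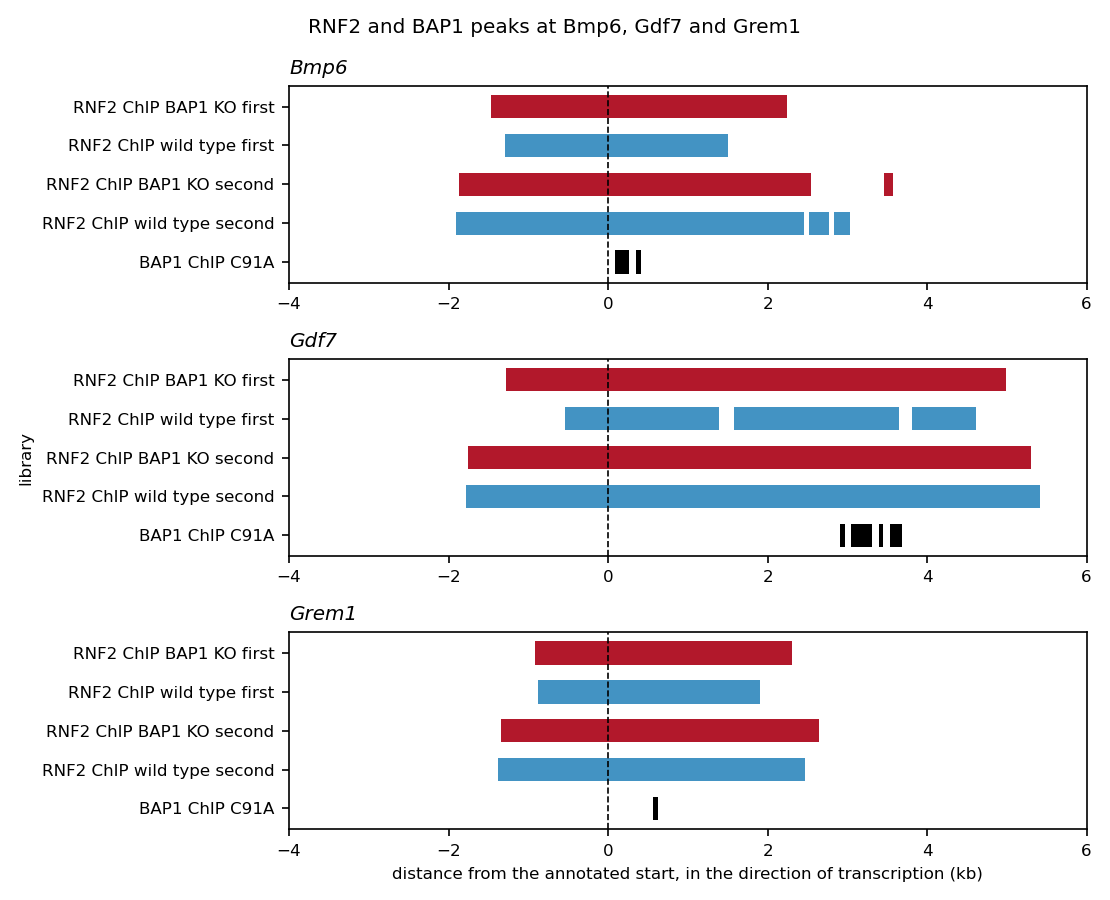
Peaks at Bmp6, Gdf7 and Grem1 along the distance from the annotated start in the direction of transcription (x axis, kb), 1 row per library; bars are called peaks, red for RNF2 in BAP1 KO, blue for RNF2 in wild type and black for BAP1 in C91A. An RNF2 peak spans the start in all 4 libraries, and the short BAP1 peaks lie right of the start with their summits inside RNF2 peaks. At Gdf7 in the first wild-type library, the RNF2 peak with the BAP1 summits is separate from the one over the start.

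The map of these 3 genes shows broad RNF2 peaks over the start and the narrow BAP1 peaks with summits within RNF2 peaks. At Gdf7 in the first wild-type library, the RNF2 peak with the BAP1 summits began 1574 bp downstream of the start. A separate RNF2 peak covered the start there. In the first wild-type library the genes with BAP1 were high in the set for RNF2. There the highest RNF2 fold enrichment was 8.58 to 12.7 at the 6 genes with BAP1, with a median of 11.4, and 2.50 to 10.5 at the 13 genes with RNF2 in both wild-type libraries and no BAP1, with a median of 4.73. Gdf6, at 10.5, was the single gene of the 13 within the range of the 6. In the second wild-type library the ranges overlapped, at 16.7 to 21.6 with BAP1 and 5.47 to 21.7 without. Bmp3 at 21.7 and Bmp4 at 21.2 lay above Fst and Gdf7 at 16.7. The pileup limit applies in that library, so this order cannot be read as stronger binding. Over all genes with RNF2 in both wild-type libraries, the median was 12.0 at the 485 with BAP1 and 4.03 at the 2437 without. The 6 genes with BAP1 were also the 6 whose RNF2 pileup was at its limit of 200 in the second wild-type library. Of all genes at that limit, 71.4% had BAP1, against 3.87% of the other genes with RNF2 there.

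The CG content of the starts was read from the promoter table, which holds 300 bases (250 before and 50 after the start) for 24 of the 38 genes. Over the 24 genes the median was 23 CG, against 15 over 17492 genes of the table, and 95.0% of all entries hold at least 1 CG. The 3 genes with BAP1 and RNF2 had 26 to 28 CG, against a median of 22 over all genes of that state. The 8 genes with RNF2 in both wild-type libraries and no BAP1 ranged from 6 at Bmpr1b to 42 at Gdf10, with a median of 11, against 23 over all genes of that state. Where a gene had more than 1 entry, as Bmpr1b and Gdf15 did, only 1 was counted. The Bmpr1b entry counted, 141931371 to 141931670 on chromosome 3, was not under its RNF2 peaks. The 5 genes with no RNF2 in wild type had 2 to 6, with a median of 4, as over all genes of that state.

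The 8 genes with RNF2 in the second but not the first wild-type library had 5 to 54, with a median of 33, against 22 over all genes of that state. Over all genes the 3 states with RNF2 thus lay at 22 to 23 CG.

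Among those 8 genes, Acvr2a held 54 CG, Acvr1 51 and Bmpr1a 48, the highest of the 24 genes, and these 3 had RNF2 in the second libraries alone, below the set's median fold enrichment. RNF2 peaks of the second wild-type library covered the start entry of 15 of the 19 genes with a peak and an entry. The exceptions were Acvr2b, Bmpr1b and Gdf15, whose peaks lay elsewhere at the gene, and Inha, whose strongest peak lay upstream of the gene span, from 75504618 to 75506844 on chromosome 1, with weaker ones inside it.

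**Figure D5:**
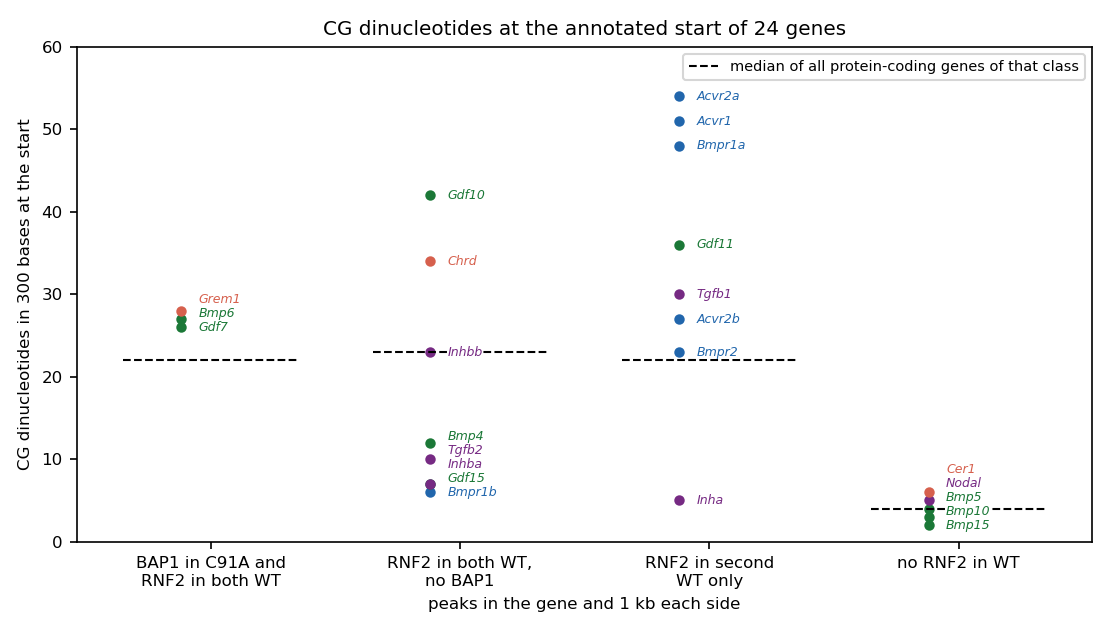
Number of CG dinucleotides in 300 bases at the annotated start (y axis) of 24 genes, grouped by their RNF2 and BAP1 peaks (x axis), with the median over all protein-coding genes of each group as a dashed line; colours give the role. Bmp6, Gdf7 and Grem1 lie at 26 to 28, the genes with no RNF2 in wild type at 2 to 6, and the receptors Acvr2a, Acvr1 and Bmpr1a at the top.

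The other genes of the pathway were read from 5 lists of 64 genes. RNF2 was present in both BAP1 KO libraries at 40, where 26.9% of all genes had it, and in both wild-type libraries at 22, where 13.4% did. None was gained or lost across all 4 libraries. In the first pair 18 were gained, against 13.9% of all genes, and 4 had BAP1, against 4.52%. Of 8 other ligands, 1 had RNF2 in both wild-type libraries, Bmp8b, with a fold enrichment of 11.2 and 20.2 in BAP1 KO, against 3.53 and 18.7 in wild type. Of 13 other receptors and co-receptors, 4 did: Tgfbr2, a type II TGF-beta receptor, Tgfbr3, the co-receptor betaglycan, and the BMP co-receptors Rgma and Rgmb. Their first-library wild-type values lay between 3.79 at Tgfbr2 and 6.35 at Tgfbr3.

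Of 19 other extracellular modulators, 7 had RNF2 in both wild-type libraries. Tll1, a protease related to Bmp1, was the strongest, with 21.2 and 19.9 in BAP1 KO, against 9.29 and 11.4 in wild type, and it had a BAP1 peak with a fold enrichment of 2.81. The antagonists Nbl1 and Sost followed, with 6.82 and 6.74 in the first wild-type library. Of 15 Smads and intracellular regulators, 3 had RNF2 in both wild-type libraries. These were the inhibitory Smad6, at 22.2 and 18.5 in BAP1 KO, against 7.82 and 16.0 in wild type, the BMP-activated Smad9 and the corepressor Ski. The Smads that carry Nodal and most BMP signals, Smad1, Smad2, Smad3, Smad4 and Smad5, had RNF2 in the second wild-type library and not in the first, where 13.4% of all genes had it.

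Target genes had the largest share of the 5 lists. Of 9, 7 had RNF2 in both wild-type libraries, where 13.4% of all genes did, and 3 had BAP1, where 4.52% did. The lists were short and chosen with earlier results of these data known, and differences between them were not tested. Eomes, a Nodal target of mesendoderm, had 21.9 and 20.1 in BAP1 KO, against 16.5 and 18.0 in wild type, with BAP1 at 3.37. Msx1, a BMP target, had 26.1 and 17.1 in BAP1 KO, against 10.5 and 18.4 in wild type, with BAP1 at 3.99. In the first wild-type library Eomes lay above every one of the 38 genes.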

How the data were processed

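The files were peak lists, one for each of 7 ChIP libraries. The submitters' processing notes name the aligner GSNAP and the build GRCm38 (mm10). Per the file headers, the authors called peaks with MACS2 against each library's input at a q-value threshold of 0.05, with version 2.1.0.20150420 for the first RNF2 and both BAP1 libraries and 2.1.1.20160309 for the second RNF2 and the RNF2 KO libraries. The deposited lists give each peak's pileup signal, −log10 p-value and q-value, and fold enrichment (a ratio), used only within a list.

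Peaks of the 19 autosomes and of X and Y were joined to RefSeq GRCm38.p6 genes (108 entries starting below 3 Mb were removed as unplaced) with a flank of 1 kb and an overlap of at least 1 bp, in Python 3.11.15 with pandas 2.3.3. Scripts were tested on simulated data. Sequences are RefSeq's. The members, lists and alternatives were chosen with earlier results of these data known. All 38 members are named, and of other lists up to 4 genes with the highest fold enrichment, except 1 that is not reported here. Libraries with no number were read as the first. Presence calls have no error estimate and no test was made.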

Additional observations from a re-analysis of the deposited data

How the results depend on the processing

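Most counts stayed within 1.5 times of the reported value under the stricter threshold, the shortened lists, the start window and the summit rule, and no member had RNF2 in more libraries under any of these 4. Peaks with −log10 q of at least 10 left 0 members with BAP1, and 0 with BAP1 and RNF2, since 24 of the 2395 BAP1 peaks reach it, and gave 1 gained member, Lefty1. Within 1 kb of gene starts, 2 genes (Bmp4 and Bmp7) were wider in BAP1 KO in both pairs, of 15 with RNF2 in all 4 libraries. At Chrd, Inhbb and Grem1, second-library peaks filled that window in both genotypes. For genes without a start entry, the start window lay around both ends of the gene span. The genes wider in both pairs changed in part. Of them, 5 of 7 at the stricter threshold and 6 of 8 with shortened lists were among the 8 reported. The first pair alone gave 7 gained and 19 wider, and the second pair alone 1 gained (Nodal) and 1 lost (Gdf3). Leaving out each library in turn gave 0 to 7 gained members and 0 to 1 lost. The 7 came without the second wild-type library, the gain of Nodal without the first BAP1 KO library, and the loss of Gdf3 without the first wild-type library. RNF2 in wild type was called at 19 to 32 members when 1 wild-type library was left out, with 32 without the first. With the RNF2 lists shortened to 4038 peaks each, 20 members had RNF2 in both BAP1 KO libraries (14.6% of all genes) and 17 in both wild-type libraries (11.7%). Gdf11, Tgfb1, Tgfb3 and Inha were then gained (4.67%) and Gdf15 lost (2.30%) in the first pair, and Lefty2 gained (3.05%) and Gdf11, Inhba and Bambi lost (2.27%) in the second. No paired test was made, because none of the results comes from a test. Presence and covered length are given within each pair instead. Relative to the second libraries, the first held fewer tags, had a longer extension and were called with another MACS2 version. Which of these bears on their shorter lists was not tested. The pileup limit of 200 bounds what the second libraries can show.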
